A study of Mus musculus with 24 samples.

Results

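The glutathione transferases, glutathione peroxidases, peroxiredoxins and superoxide dismutases, with catalase, the thioredoxins, the glutaredoxins and the enzymes that make and regenerate glutathione, were followed in the epithelial fraction of mouse lung organoids exposed to nylon 6,6 microfibers. Genes were taken by name and not by their values, but with earlier results of these data known. The families were Gsta, Gstm, Gsto, Gstp, Gstt, Gstk, Gstz, Mgst, Gpx, Prdx and Sod. Added to them were Cat, Gsr, Gss, Txn1, Txn2, Txnrd2, Glrx, Glrx2, Glrx3 and Glrx5. This gave 43 genes of 14557 gene symbols. Gstp1 and Txnrd2 were not analysed here. Of the 43 genes, 41 passed the filter on low counts and were tested; Gstm6 and Gstm7 did not. Gsta2 and Sod3 passed it mainly through the libraries of the higher dose, 4 of 4 of which were above the limit of 1.39 counts per 1000000 (CPM) for each gene, against 0 control libraries, so their values are given only as a description.

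Organoids were grown from 200000 primary EpCAM+ lung cells of wild-type female C57BL6 mice, mixed with 200000 CCL206 cells, wild-type fibroblasts of lung (male, strain ddY), in Matrigel. The wells held no fibers, 12000 fibers or 30000 fibers, each fiber 12 by 31 µm, for 7 days, after which EpCAM-coated beads separated the epithelial fraction. Each of the 3 groups had 4 libraries, from mouse 1 to mouse 4, and the same 4 mice supplied every group. CCL206 is a single line, so the fibroblast partner was the same in every well, and no source used here gives the age of the mice.

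These enzymes remove reactive oxygen species and reactive electrophiles. Superoxide dismutases convert superoxide to hydrogen peroxide, which catalase, the glutathione peroxidases and the peroxiredoxins reduce; glutathione reductase (Gsr), the thioredoxins and the glutaredoxins return the thiols used to their reduced form. Glutathione transferases join glutathione to electrophiles such as lipid aldehydes. In the airway, secretory cells are known for xenobiotic metabolism, and many genes of this group respond to the factor NRF2, which binds antioxidant response elements.

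Promoter sequence is shown for 4 genes that recur in the results, since NRF2 sites are the best known regulatory sequence of this group: Prdx1 and Sod1, whose promoters hold the letters of the element, and Gsto1 and Gpx2, which fell at both doses and whose promoters do not hold them. The sequences are RefSeq's on GRCm38.p6, 5′ to 3′, from 250 bases before the start site up to the first base covered by an annotated exon; capitals mark the core letters TGACNNNGC, searched on both strands.
Prdx1, chr4:116685349-116685543, plus strand: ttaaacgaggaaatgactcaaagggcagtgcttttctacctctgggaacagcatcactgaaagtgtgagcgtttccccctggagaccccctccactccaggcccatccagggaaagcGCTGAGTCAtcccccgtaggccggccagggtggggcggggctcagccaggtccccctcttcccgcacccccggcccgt
Sod1, chr16:90220512-90220753, plus strand: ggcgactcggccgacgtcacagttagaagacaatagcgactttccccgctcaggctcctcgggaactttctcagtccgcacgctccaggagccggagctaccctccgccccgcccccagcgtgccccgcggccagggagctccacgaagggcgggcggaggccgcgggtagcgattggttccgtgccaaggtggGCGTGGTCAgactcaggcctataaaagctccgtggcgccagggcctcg
Gsto1, chr19:47854723-47854969, plus strand: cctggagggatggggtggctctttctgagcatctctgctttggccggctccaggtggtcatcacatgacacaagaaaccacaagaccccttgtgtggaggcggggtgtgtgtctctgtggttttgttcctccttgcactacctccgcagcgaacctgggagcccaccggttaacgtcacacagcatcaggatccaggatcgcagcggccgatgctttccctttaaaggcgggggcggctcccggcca
Gpx2, chr12:76795555-76795804, minus strand: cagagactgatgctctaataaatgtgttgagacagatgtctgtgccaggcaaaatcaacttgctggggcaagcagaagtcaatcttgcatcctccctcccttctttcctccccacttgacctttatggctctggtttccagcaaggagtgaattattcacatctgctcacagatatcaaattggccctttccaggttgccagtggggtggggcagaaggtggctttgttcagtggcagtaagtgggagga
A promoter of 300 bases, 250 before and 50 after the start site, was found for 38 of the 43 genes. The core letters occurred in 5 of these 38 (13.2%), in Gsta3, Gstm5, Mgst1, Prdx1 and Sod1, against 12.4% of 32851 promoters of the same length. The stricter form TGACTCAGC, which is the core with its open letters fixed, occurred in 1 of 38 (2.63%), against 0.454% of all promoters. This was the Prdx1 match already counted for the core, 133 bases before the start. A match of letters is not a binding site, and no protein binding was measured here.

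Total counts per library ranged from 21222034 to 28232472 in controls, from 20103389 to 31119155 at 12000 fibers and from 6767842 to 9234052 at 30000 fibers. Of the counts of representative transcripts, 1 per gene, and not of the total, mitochondrial transcripts took 5.20% to 7.77%, 5.33% to 6.91% and 14.3% to 16.3%. An index that sets short isoforms against long isoforms with the same 3′ end, on a log2 scale, lay at -0.02 to 0.02, -0.03 to -0.01 and 0.33 to 0.38. The libraries at 30000 fibers therefore stood apart in depth, mitochondrial share and isoform balance, and none of these overlapped the controls. Epcam, the sorted marker, was present at 604 to 743, 468 to 497 and 185 to 263 CPM. Markers of fibroblasts were also present, at a summed 8707 to 13750, 15980 to 17410 and 15300 to 18350 CPM, with none at 0 in any group and 17 of 18 tested higher at each dose than in controls. Markers of club and secretory cells summed to 1916 to 4063, 109 to 162 and 277 to 392 CPM, of basal cells to 2111 to 3404, 472 to 648 and 252 to 324 CPM, and of ciliated cells to 100 to 160, 46.8 to 54.5 and 31.04 to 53.7 CPM. Within the club and secretory list 8 of 9 tested markers were lower at each dose, but Scgb1a1 measured 5.73 to 16.5, 12.7 to 29.2 and 175 to 228 CPM and was the exception at 30000 fibers. Alveolar type 1 markers summed to 1731 to 2053, 1291 to 1620 and 948.5 to 1120 CPM, and pan-epithelial markers to 6589 to 7636, 6748 to 7558 and 3713 to 4409 CPM. Alveolar type 2 markers summed to 1877 to 3929, 3607 to 6396 and 4459 to 6590 CPM. Of 8 leukocyte markers, 3 were listed, at 18.6 to 28.03, 25.6 to 29.1 and 30.3 to 41.8 CPM. In these bulk libraries fewer cells of a type and less RNA per cell cannot be told apart.

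In control organoids the representative transcripts of 2 transferases had the highest levels per kilobase. Each gene is ranked by that 1 transcript, not by the sum of its transcripts. The representatives of Sod1 and Gpx2, retained introns of 3970 and 3165 bases, ranked 15 and 16. Per kilobase of transcript, the highest level was that of Gsto1, an omega transferase that also acts as a thiol reductase, at 661 ± 66.6 CPM per kb (SD, n = 4). Gsta4, an alpha transferase that conjugates the lipid aldehyde 4-hydroxynonenal, followed at 334 ± 96.1 CPM per kb. Next came the membrane-bound transferase Mgst1 at 143 ± 21.3, Prdx6, a peroxiredoxin that also has phospholipase activity, at 138 ± 17.9 and Txn1, the cytosolic thioredoxin, at 127 ± 9.67 CPM per kb. Mgst1 differed from Prdx6, and Prdx6 from Txn1, by less than the SD of either higher gene. At 12000 fibers Gsto1 was still highest, at 258 ± 37.9 CPM per kb, while Gsta4 ranked 7 at 82.5 ± 2.73. At 30000 fibers Txn1, at 456 ± 25.0 CPM per kb, ranked above Gsto1, at 421 ± 21.9, a difference larger than either SD.

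Summed over the 19 transferases, the level was 1586 ± 212 CPM in controls, 743 ± 32.7 at 12000 fibers and 1226 ± 65.9 at 30000 fibers (SD, n = 4). All 4 sums at 12000 fibers (699 to 776 CPM) lay below every control (1385 to 1868 CPM), and the sums at 30000 fibers (1153 to 1306 CPM) lay between. All sums here add only 1 representative transcript per gene, with no correction for length. At 30000 fibers 18 of 34 genes with several tested transcripts had transcripts called in opposite directions against controls. The sums at that dose are therefore those of the chosen transcripts, not of the whole families. As a percentage of the control mean, alpha transferases stood at 29.7% at 12000 and 47.6% at 30000 fibers, omega at 39.3% and 64.2%, mu at 56.8% and 120%, and theta at 124% and 143%. The 6 peroxiredoxins stood at 86.3% and 141%, the 6 glutathione peroxidases at 88.2% and 133%, and the 3 dismutases with catalase at 111% and 150%. Gsto1 alone made up 49.4% of the transferase sum in controls and 40.9% at 12000 fibers, and Gsta4 20.3% and 10.9%.

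**Figure D1:**
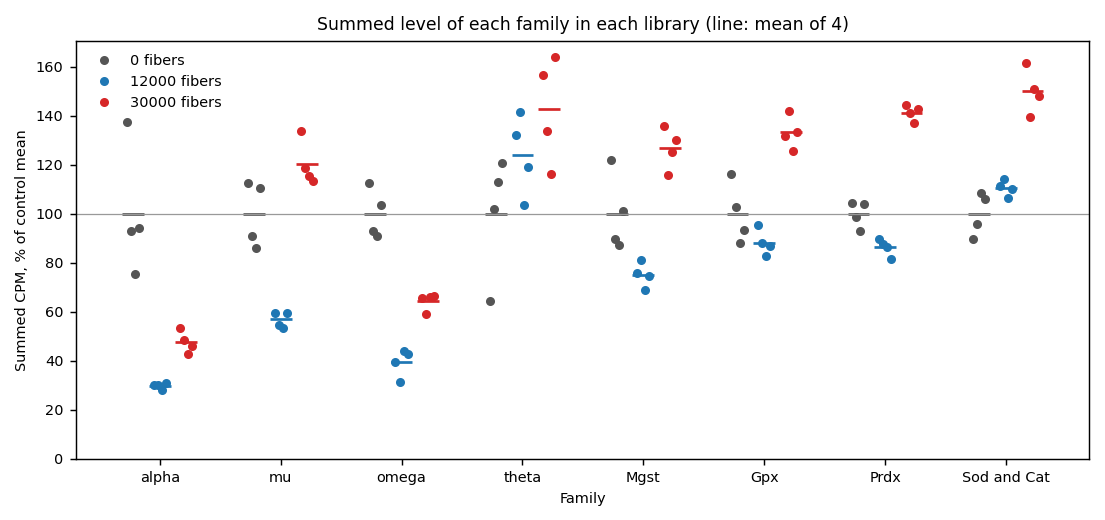
Summed CPM of each gene family in each epithelial library (points) and the mean of 4 (lines), as a percentage of the control mean, for 0, 12000 and 30000 fibers per well. The alpha and omega sums at both doses lie below the controls, while the peroxiredoxin sums average 86.3% at 12000 and 141% at 30000 fibers.

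The first comparison asked which of these genes differed at 12000 fibers, where depth, mitochondrial share and isoform balance were close to the controls. At an adjusted p under 0.05, 8 genes were higher and 10 lower of 41 tested. Over all 13759 genes tested, 18.7% were higher and 19.3% lower (38.0% in all), so these shares (19.5% and 24.4%) lay near the background. Without Gsta2 and Sod3, 7 were higher and 10 lower of 39 (median -0.01). Without the 30000 fiber libraries in the fit, 7 were higher and 10 lower, against 2611 and 2579 of all 13512 genes tested in that fit. The median log2 fold change was 0.03 over the 41 genes and 0.00 over all genes. The CPM of the groups did not overlap for 14 of the 41 genes, 4 higher and 10 lower, against 36.3% of all genes (17.6% higher, 18.7% lower). The falls reached 4.04-fold and all 10 were of transferases, Gpx2, Gsr or peroxiredoxins, while rises among genes well above the filter stayed within 1.61-fold.

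Transferases held the largest falls. Gsta4 (chr9:78191947-78209349, 7 exons) measured 461, 304.5, 244 and 294 CPM in control mice 1 to 4 and 81.2, 79.7, 77.5 and 83.9 CPM at 12000 fibers. All exposed libraries lay close together and far below every control, and the log2 fold change was -2.02 ± 0.16 (SE; adjusted p 2.13e-06, edgeR). Gsto1 (chr19:47854970-47864790, 6 exons) fell from 880, 728, 709 and 808 CPM to 306, 241, 341 and 331 CPM. Every exposed mouse was below every control, with a log2 fold change of -1.36 ± 0.10 (adjusted p 1.23e-08). Its family member Gsto2 was low, at 3.06 ± 1.28 CPM in controls and 3.06 ± 0.67 at 12000 fibers, and did not pass the test.

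The mu class, cytosolic transferases encoded in a cluster on chromosome 3, had 2 falls. Gstm1 (chr3:108012255-108017973) measured 118, 89.3, 83 and 115 CPM in controls and 55.7, 50.4, 48.4 and 52.4 CPM at 12000 fibers. The groups did not overlap, and its log2 fold change was -0.97 ± 0.10 (adjusted p 1.22e-06). Gstm2 measured 27.6, 27.4, 24.2 and 30.1 CPM in controls and 16, 14.4, 12.8 and 16.9 CPM at 12000 fibers, again without overlap (log2 fold change -0.86 ± 0.11, adjusted p 3.08e-06). Gstm4 and Gstm5 did not pass, with log2 fold changes of -0.21 ± 0.16 and 0.05 ± 0.14. Mu genes are related in sequence, to a degree not measured here, as are those of the alpha and theta classes. No source used here says how reads that match several genes were assigned. The split within a class is therefore uncertain where such reads occur.

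Among the other cytosolic classes, Gsta3 (log2 fold change -0.33 ± 0.16, adjusted p 0.117), the kappa transferase Gstk1 (-0.30 ± 0.17), the zeta transferase Gstz1 (-0.18 ± 0.10) and Gstt3 (-0.04 ± 0.14) did not pass. Gsta3 passed with mouse as a replicate block (-0.32, adjusted p 0.0352) or without control mouse 3 (-0.42, adjusted p 0.0404), and Gstk1 without mouse 1 of the 12000 fiber group (-0.51, adjusted p 0.0229). Gstt2 was the transferase with a rise, from 5.33, 9.24, 7.82 and 10.6 CPM to 15.5, 16.1, 9.62 and 12.1 CPM; the groups overlapped, and the log2 fold change was 0.69 ± 0.19 (adjusted p 0.00876). Gstt1 did not pass (0.42 ± 0.19, adjusted p 0.0972) but did without control mouse 3 (0.55, adjusted p 0.0307). Gsta2 stood at 0.375 ± 0.0952 CPM in controls and 1.03 ± 0.438 at 12000 fibers.

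The microsomal transferases, membrane enzymes of which Mgst2 can also make leukotriene C4, included 2 falls of 3 genes. Mgst2 measured 27.1, 17.1, 16.9 and 28.7 CPM in controls and 6.1, 6.13, 6 and 10.7 CPM at 12000 fibers, with no overlap (log2 fold change -1.65 ± 0.22, adjusted p 4.17e-05). Mgst1 fell less, from 166 ± 24.9 to 131 ± 7.98 CPM (mean and SD of 4 libraries; log2 fold change -0.34 ± 0.09, adjusted p 0.00424), and its groups also did not overlap. Mgst3 did not pass (-0.23 ± 0.13, adjusted p 0.174); with mouse as a replicate block it did (-0.24, adjusted p 0.0406).

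Of 6 glutathione peroxidases, Gpx2 fell and Gpx1 rose slightly. Gpx2, the gastrointestinal-type peroxidase of epithelia (chr12:76792333-76795497), measured 137, 117, 78.4 and 92.7 CPM in controls and 57.2, 49.6, 52.4 and 43.8 CPM at 12000 fibers. The highest exposed library was below the lowest control, and the log2 fold change was -1.06 ± 0.15 (adjusted p 1e-04). Gpx1, the ubiquitous cytosolic form, rose from 110 ± 9.93 to 125.5 ± 7.14 CPM (mean and SD of 4 libraries; log2 fold change 0.20 ± 0.07, adjusted p 0.0369), with overlapping groups. That call did not hold without control mouse 2, 3 or 4 or without mouse 1, 2 or 4 of the exposed group, where the log2 fold change was 0.17 to 0.20. Gpx4, which reduces lipid hydroperoxides in membranes, stood at 36.4 ± 3.65 and 41.9 ± 4.00 CPM and did not pass (adjusted p 0.122), nor did Gpx3, Gpx7 and Gpx8.

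Of 6 peroxiredoxins, 2 fell and 2 rose. Prdx6 fell from 337, 310, 285 and 385 CPM to 226, 232, 229 and 215 CPM, without overlap (log2 fold change -0.55 ± 0.08, adjusted p 2.03e-05). Prdx1, a cytosolic form, was lower by a small amount, 257 ± 21.7 against 223 ± 9.94 CPM (mean and SD of 4 libraries; log2 fold change -0.20 ± 0.07, adjusted p 0.0229). The Prdx1 call ended without control mouse 1 (-0.15, adjusted p 0.0847), without control mouse 2 (-0.19, adjusted p 0.0554) or without exposed mouse 4 (-0.17, adjusted p 0.0813), and with summed transcripts (-0.17, adjusted p 0.0773). The mitochondrial Prdx3 rose from 27, 29.8, 31.7 and 30.6 CPM to 41.7, 37.8, 33.9 and 35.8 CPM (log2 fold change 0.33 ± 0.09, adjusted p 0.00442), with no overlap. Prdx5, found in mitochondria, peroxisomes and cytosol, rose from 75.9 ± 5.21 to 88.6 ± 5.80 CPM (0.23 ± 0.07, adjusted p 0.012), though not past the threshold without exposed mouse 1 (0.19, adjusted p 0.0523). Prdx2 and the endoplasmic reticulum form Prdx4 did not pass, with log2 fold changes of 0.03 ± 0.07 and 0.15 ± 0.11.

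Of the dismutases, neither the cytosolic Sod1 (142 ± 6.16 against 139 ± 4.29 CPM, SD, n = 4) nor the mitochondrial Sod2 (57.7 ± 3.47 against 59.7 ± 3.79 CPM) passed. Catalase, the peroxisomal enzyme that breaks down hydrogen peroxide, rose from 131, 138, 180 and 166 CPM to 191.5, 199, 187 and 187 CPM, so every exposed library was above every control (log2 fold change 0.32 ± 0.09, adjusted p 0.0113). Sod3, the secreted form, was at most 1.435 CPM in all 8 libraries.

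Among the genes that regenerate thiols, Gsr had the clearest fall. Glutathione reductase (chr8:33653238-33698163, 13 exons), which reduces glutathione disulfide with NADPH, measured 180.5, 158.5, 134 and 141 CPM in controls and 87.2, 86.5, 90.9 and 88.8 CPM at 12000 fibers. The exposed libraries lay close together and none reached a control (log2 fold change -0.80 ± 0.08, adjusted p 2.05e-07). The mitochondrial thioredoxin Txn2 rose from 39.7 ± 2.57 to 53.7 ± 3.60 CPM (SD, n = 4; 0.43 ± 0.07, adjusted p 1.14e-04), without overlap. Glutaredoxin Glrx rose from 43.5 ± 8.41 to 60.0 ± 6.57 CPM (0.46 ± 0.12, adjusted p 0.0049), with overlap. Glutathione synthetase (Gss, -0.09 ± 0.08), Glrx2, Glrx3 and Glrx5 did not pass. Txn1 did not pass either (0.17 ± 0.07, adjusted p 0.0638); it did with mouse as a replicate block (0.17, adjusted p 0.0265), without control mouse 1 (0.20, adjusted p 0.0409) and without exposed mouse 3 (0.21, adjusted p 0.0387).

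**Figure D2:**
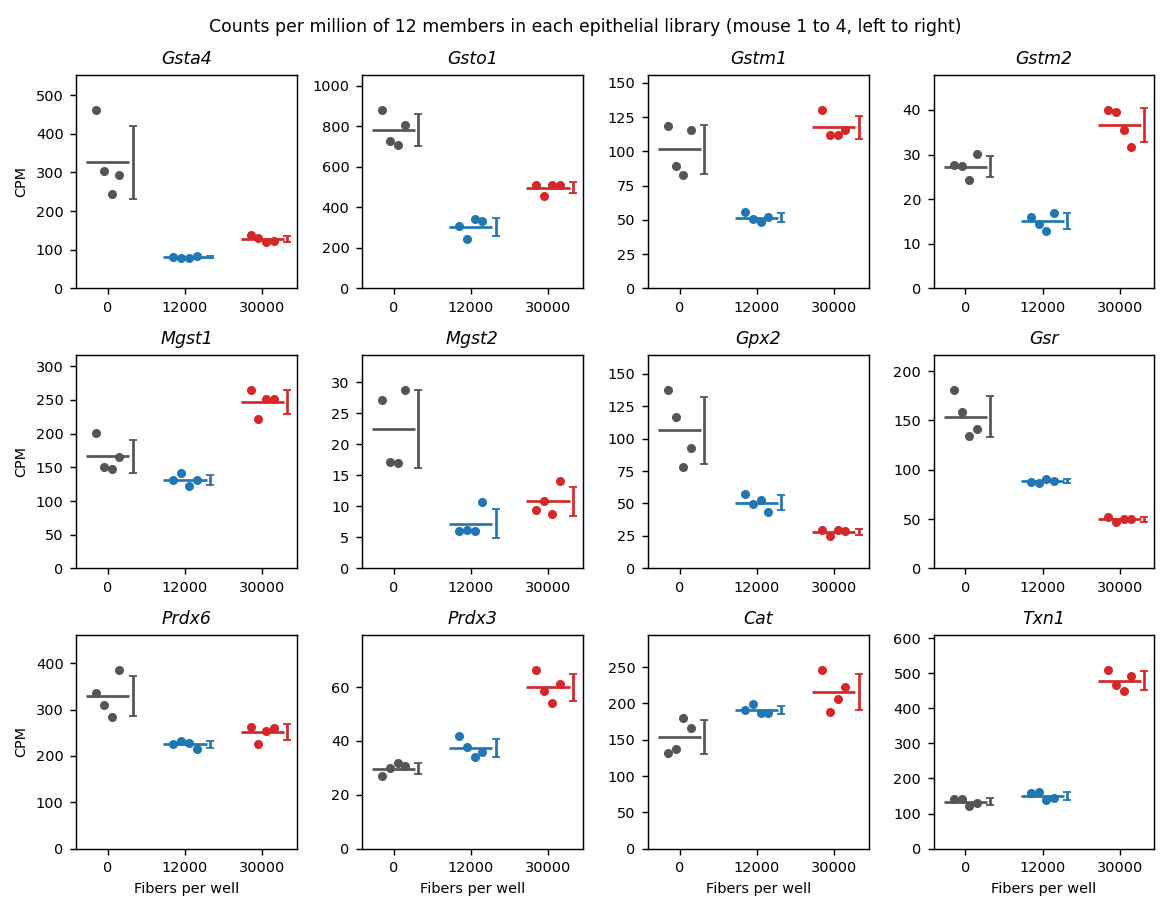
CPM of 12 genes in each epithelial library against fibers per well; points are mice 1 to 4 from left to right, lines the mean of 4 and bars the SD. Gsta4, Gsto1, Gstm1, Gpx2, Gsr and Prdx6 at 12000 fibers lie below every control, while Cat and Prdx3 lie above.

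The summed markers of club and secretory, basal, ciliated and alveolar type 1 cells were lower at 12000 fibers with no overlap with the controls, and the summed fibroblast markers were higher with no overlap, in the ranges already given. Of 7 tested alveolar type 1 markers, 3 were called lower, while Ager measured 172 to 277.5 CPM against 97.2 to 191 in controls. Alveolar type 2 sums overlapped the controls, with 1 of 10 markers called higher and 0 lower. The part of the epithelial types in these results was not tested. With the fibroblast marker score as a covariate in the fit, 0 of the 41 genes were higher and 5 lower at 12000 fibers, against 1.02% and 5.18% of all genes. Gsta4 (-1.29, adjusted p 6.2e-08), Gsto1 (-1.15, adjusted p 3.34e-05), Gstm2 (-0.78, adjusted p 0.00837), Gstm1 (-0.61, adjusted p 0.00768) and Gsr (-0.45, adjusted p 0.00609) were the 5 that stayed lower. The covariate did not overlap between controls and either dose, so its effect and that of the fibers cannot be told apart.

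At 30000 fibers, 26 genes were higher and 8 lower than in controls of 41 tested, with a median log2 fold change of 0.57, against 32.2% higher, 33.4% lower (65.6% in all) and a median of -0.03 over all genes. Groups did not overlap for 32 of the 41 genes, 24 higher and 8 lower, against 58.1% of all genes (28.7% higher, 29.4% lower). Gsta2 and Sod3 are in these counts through the filter; without them 24 were higher and 8 lower of 39, with a median of 0.52, and 22 higher and 8 lower did not overlap. Transcript length moved with the direction: in the shortest of 5 length classes, of 57 to 1803 bases, which holds 26 of these 41 genes, 55.4% of genes were higher and the median was 0.53, while in the longest class the median was -0.23. The median length was 1457 bases for the 43 representative transcripts and 3109 bases over all genes. With the length trend taken out, the median of the 41 genes was 0.50. That median includes Gsta2 and Sod3 and was not computed without them, so it is not read as a result about these genes. The part of RNA quality in these results was not tested. The directions given are those of the representative transcripts: for 18 of 34 genes with several tested transcripts, including Mgst1, Mgst2, Prdx1, Prdx2, Prdx4, Gpx1 and Glrx3, another transcript was called in the opposite direction. No such count was made over all genes.

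The 8 falls at 30000 fibers were Gpx2, Gsr, Gsta4, Mgst2, Gstm4, Gsto1, Mgst3 and Prdx6. Gpx2 stood at 29.8, 24.7, 29.4 and 29.1 CPM, under every control (78.4 to 137 CPM), with a log2 fold change of -1.91 ± 0.18 (adjusted p 7.4e-07, edgeR). Gsr stood at 52.1, 46.6, 50 and 50.4 CPM, also under every control (-1.63 ± 0.09, adjusted p 4.4e-12). Both were lower than at 12000 fibers too, Gpx2 by a log2 fold change of -0.85 ± 0.19 (adjusted p 0.0018) and Gsr by -0.83 ± 0.09 (adjusted p 2.05e-07), so their levels fell at each step of dose with no overlap between groups.

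The representative transcripts of Gsta4, Gsto1, Gstm1 and Gstm2, low at 12000 fibers, were higher at 30000 than at 12000 fibers. Gsta4 measured 137, 131, 119 and 122 CPM, below every control (log2 fold change -1.36 ± 0.16, adjusted p 1.48e-05) and above every library at 12000 fibers (0.66 ± 0.17, adjusted p 0.006). Gsto1 measured 508, 458, 511 and 510.4 CPM, between the same groups (-0.65 ± 0.09 against controls, adjusted p 7.21e-06; 0.71 ± 0.10 against 12000 fibers, adjusted p 4.98e-06). With the length trend taken out, the difference between doses was -0.09 for Gsta4 and 0.13 for Gsto1, and both genes had other transcripts called lower at 30000 than at 12000 fibers. Gstm1, at 130.1, 112, 112 and 116 CPM, overlapped the controls and did not pass (0.21 ± 0.10, adjusted p 0.0863). It passed with mouse as a replicate block (0.22, adjusted p 0.0139), without control mouse 1 (0.29, adjusted p 0.0132) or without control mouse 4 (0.27, adjusted p 0.0291). The Gstm1 value was -0.26 with the length trend taken out and -0.09 with summed transcripts (adjusted p 0.475). Gstm2, at 40, 39.5, 35.6 and 31.7 CPM, was above every control (0.42 ± 0.11, adjusted p 0.00207). That call was lost with summed transcripts (0.22, adjusted p 0.131), and the value was -0.23 with the length trend taken out. The representative transcripts of both mu genes were far above 12000 fibers, by 1.18 ± 0.11 and 1.28 ± 0.12 on the log2 scale (adjusted p 5.68e-08 and 1.32e-08). Of 4 Gstm1 transcripts 2 were called higher than at 12000 fibers and 0 lower. Of 3 Gstm2 transcripts 1 was called higher and 1 lower (-0.96).

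Gstm4 fell to 4.7, 2.12, 3.83 and 5.01 CPM, from 7.98 ± 0.886 CPM in controls (log2 fold change -1.02 ± 0.22, adjusted p 4.26e-04). Gsto2 rose to 5.09, 5.29, 5.89 and 10.4 CPM (1.14 ± 0.31, adjusted p 0.00324), and Gstm5 and Gstt2 rose by 1.00 ± 0.15 and 0.95 ± 0.22 on the log2 scale. Gsta3 did not pass against controls (0.29 ± 0.17, adjusted p 0.148), though it did with mouse as a replicate block (0.31, adjusted p 0.0376) or without control mouse 4 (0.48, adjusted p 0.00482). Gstk1, Gstt3 and Gstz1 did not pass, and Gstt1 (0.44 ± 0.22, adjusted p 0.0914) passed only without control mouse 3 (0.57, adjusted p 0.0309) or without 30000 fiber mouse 3 (0.57, adjusted p 0.0499), of the libraries left out in turn. Gsta2 measured 4.7, 4.23, 3.83 and 5.01 CPM here.

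Of the microsomal genes, Mgst1 rose to 264, 222, 251 and 251 CPM, above every control (148 to 201.5 CPM; log2 fold change 0.57 ± 0.09, adjusted p 1.22e-05), but it was 0.01 with the length trend taken out and lower with summed transcripts (-0.38, adjusted p 0.00145). Mgst2, at 9.4, 10.9, 8.83 and 14 CPM, remained below every control (-1.06 ± 0.25, adjusted p 0.00182), a direction that turned with summed transcripts (0.30, adjusted p 0.168) and with its highest protein-coding transcript (1.08, adjusted p 6.24e-05). Mgst3 was lower, at 23.0 ± 3.89 against 33.1 ± 6.19 CPM (SD, n = 4; -0.54 ± 0.15, adjusted p 0.0054).

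The peroxidases other than Gpx2 were higher at 30000 fibers. Gpx1 measured 234, 266, 225.5 and 244 CPM, against 103 to 124 CPM in controls (log2 fold change 1.14 ± 0.07, adjusted p 5.82e-11). Gpx8, a membrane protein of the endoplasmic reticulum, rose by 0.69 ± 0.07 on the log2 scale, and Gpx4 by 0.38 ± 0.11 (adjusted p 0.0058) with overlap, though it was -0.32 with the length trend taken out. The low-level Gpx7 stood at 4.59 ± 0.545 against 2.23 ± 1.21 CPM (1.06 ± 0.32, adjusted p 0.00677). Gpx3, the plasma form, stood at 4.13 ± 1.56 against 1.85 ± 0.734 CPM (1.18 ± 0.39, adjusted p 0.0111), a call that ended without 30000 fiber mouse 3 (1.02, adjusted p 0.0579).

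Peroxiredoxins were higher except Prdx6. Prdx4 rose to 77.2, 93.1, 68.9 and 83.5 CPM from 25.9 ± 3.03 CPM (log2 fold change 1.64 ± 0.11, adjusted p 2.44e-10). Prdx2 rose to 218, 252, 226 and 230.2 CPM from 102.5 ± 8.74 CPM (1.18 ± 0.07, adjusted p 3.39e-11), and Prdx3 to 60.0 ± 5.03 CPM (1.01 ± 0.09). Prdx1 rose to 436, 404, 386 and 418 CPM (0.68 ± 0.07, adjusted p 4.69e-08; not called with summed transcripts, -0.12) and Prdx5 to 124 ± 6.83 CPM (0.71 ± 0.07). Prdx6, at 264, 225, 255 and 260 CPM, was below every control (-0.39 ± 0.08, adjusted p 2.68e-04).

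Sod1, Sod2 and catalase were each higher: Sod1 at 229 ± 8.22 CPM (mean and SD of 4 libraries; log2 fold change 0.69 ± 0.06, adjusted p 3.4e-09), Sod2 at 82.1 ± 5.56 CPM (0.51 ± 0.08) and Cat at 216 ± 24.6 CPM (0.49 ± 0.09, adjusted p 1.99e-04). With the fibroblast covariate the calls of Cat (0.01, adjusted p 0.978) and Sod2 (0.30, adjusted p 0.274) ended. Sod3 stood at 5.88, 3.53, 3.53 and 1.67 CPM. Txn1 measured 508.5, 468, 449 and 491 CPM against 120 to 142.5 CPM in controls (1.84 ± 0.07, adjusted p 2.83e-14). Glrx3, an iron-sulfur cluster carrier, measured 92.9, 127, 116 and 95.5 CPM against 19.7 to 25.7 CPM (2.22 ± 0.11, adjusted p 4.96e-13), the largest rise among genes well above the filter. Txn2, Glrx, Glrx2 and Glrx5 rose to 218%, 199%, 191% and 143% of the control mean, and Gss did not pass (-0.07 ± 0.10) but was lower with summed transcripts (-0.56, adjusted p 8.11e-05). With the length trend taken out, the log2 fold change was 1.18 for Txn1, 0.66 for Txn2, 0.51 for Gpx1 and 0.92 for Prdx2 and Prdx4. For Prdx3 it was 0.67 and for Prdx5 0.55. The values of Sod1 (0.80) and Sod2 (0.67) became larger. Of 7 Sod2 transcripts, however, 2 were called higher than in controls and 4 lower, down to -2.74. Of 2 Cat transcripts 1 was called higher and 1 lower (-0.92).

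**Figure D3:**
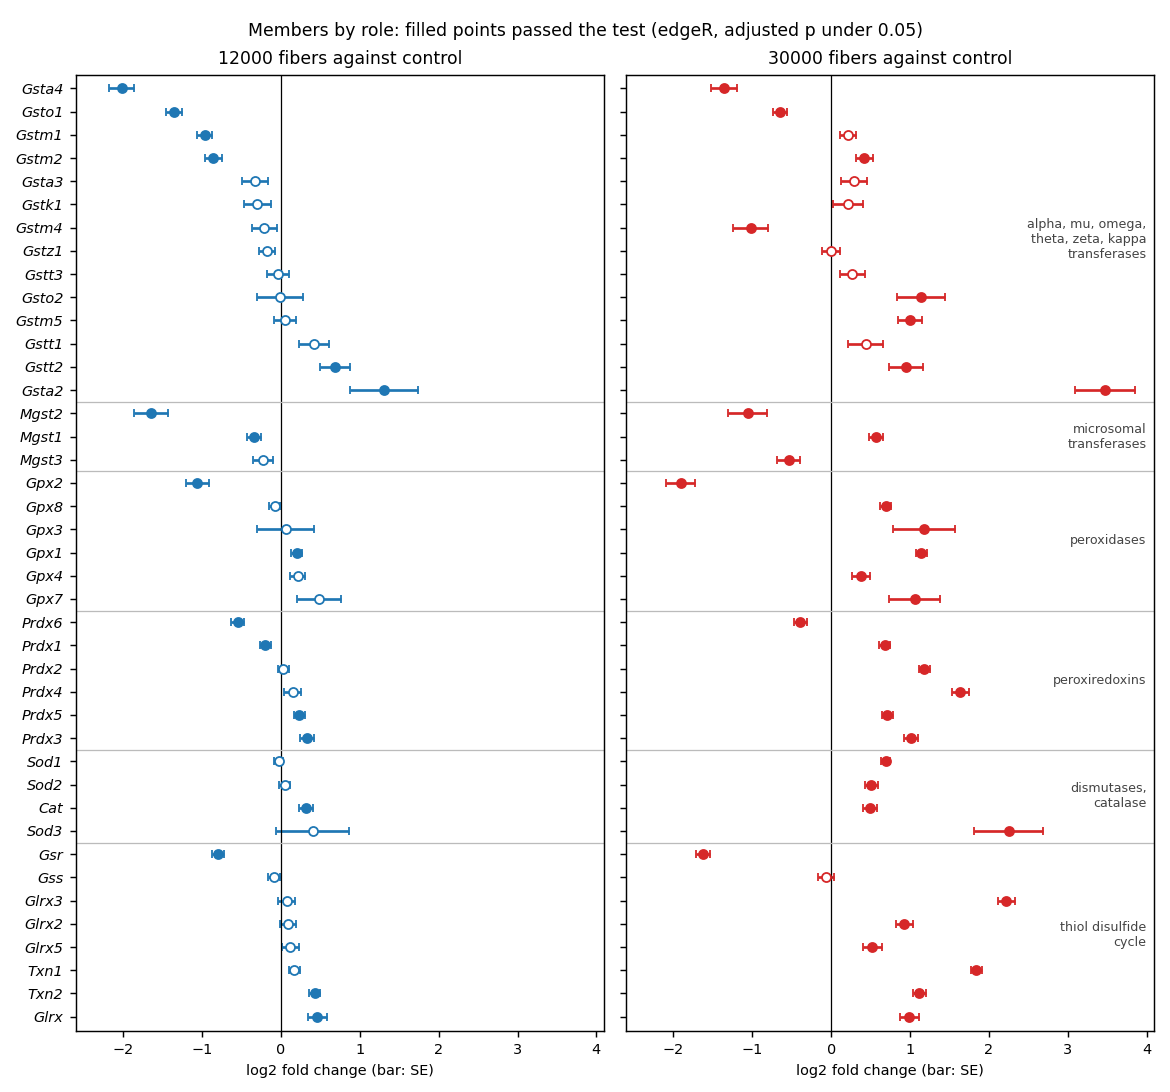
Log2 fold change against control (x axis; bars are the SE) of the 41 tested genes by role, at 12000 fibers (left) and 30000 fibers (right); filled points passed the test. Falls of transferases, Gpx2 and Gsr stand beside small changes at 12000 fibers, and 26 genes lie to the right of 0 as filled points at 30000 fibers.

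The deposited counts were per transcript, and the transcripts of a gene were compared because their balance shifted at 30000 fibers. Of 178 tested transcripts of these genes, those of 34 genes with several could be set side by side. The same counts were not made over all genes, so the counts of directions that follow have no background beside them. At 12000 fibers no gene had transcripts called in opposite directions; 10 genes had only falls and 7 only rises. All 6 Gsto1 transcripts fell, by -1.69 to -1.30 on the log2 scale, as did all 3 of Gpx2 (-1.06 to -1.05), all 3 of Gsr (-0.92 to -0.80), both of Gsta4 (the representative by -2.02), all 4 of Gstm1 (-1.01 to -0.94) and all 9 of Prdx6 (-0.69 to -0.48). Only 1 of 6 Prdx1 transcripts did. Transcripts of a gene can share reads, so they are not independent measures of a change. No source used here says how such reads were assigned.

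At 30000 fibers, 18 of the 34 genes had transcripts called in opposite directions against controls. The isoform index, a median over 925 genes, was 0.33 to 0.38 in these libraries. The count is therefore not read as particular to these genes. Of 8 Mgst1 transcripts 1, the representative, was higher (0.57) and 7 were lower, down to -1.57. Of 6 Prdx1 transcripts, the 2294-base representative was higher (0.68) and the other 5 were lower, from -1.32 to -1.03. Of 4 Glrx3 transcripts, the representative was higher (2.22) and 3 were lower, to -1.81; of 4 Gpx1 transcripts, 1 was higher (1.14) and 1 lower (-3.49). Prdx4 likewise had 1 higher and 2 lower transcripts, and Prdx2 had 4 higher and 3 lower. The rest of the 18 genes were Cat, Glrx, Glrx2, Glrx5, Gpx4, Gstm1, Gstm2, Gstt2, Mgst2, Prdx5, Sod2 and Txn2. For all 18 genes the direction given at 30000 fibers is that of the chosen transcript.

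Falls only were called at 30000 fibers for 11 genes: Gpx2, Gsr, Gss, Gsta3, Gsta4, Gstk1, Gstm4, Gsto1, Gstt3, Gstz1 and Prdx6. All 3 transcripts of Gpx2 (-1.91 to -1.73) and of Gsr (-2.43 to -1.63), both of Gsta4 (-2.94 and -1.36) and all 6 of Gsto1 (-3.36 to -0.57) were lower. Rises only were called for 4 genes, Gpx8, Gstm5, Gsto2 and Sod1; both Sod1 transcripts rose (0.69 and 0.85). Txn1 and Prdx3 had a single tested transcript. With the transcripts of a gene summed, Mgst1 was lower than in controls at 30000 fibers (-0.38, adjusted p 0.00145), Prdx1 was not called (-0.12, adjusted p 0.15), and the median of the genes was 0.30. With the highest protein-coding transcript, an alternative chosen after seeing the data, Mgst2 was higher (1.08, adjusted p 6.24e-05), since its representative is annotated as a retained intron; so are those of Gpx2, Gstk1, Prdx5 and Sod1.

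**Figure D4:**
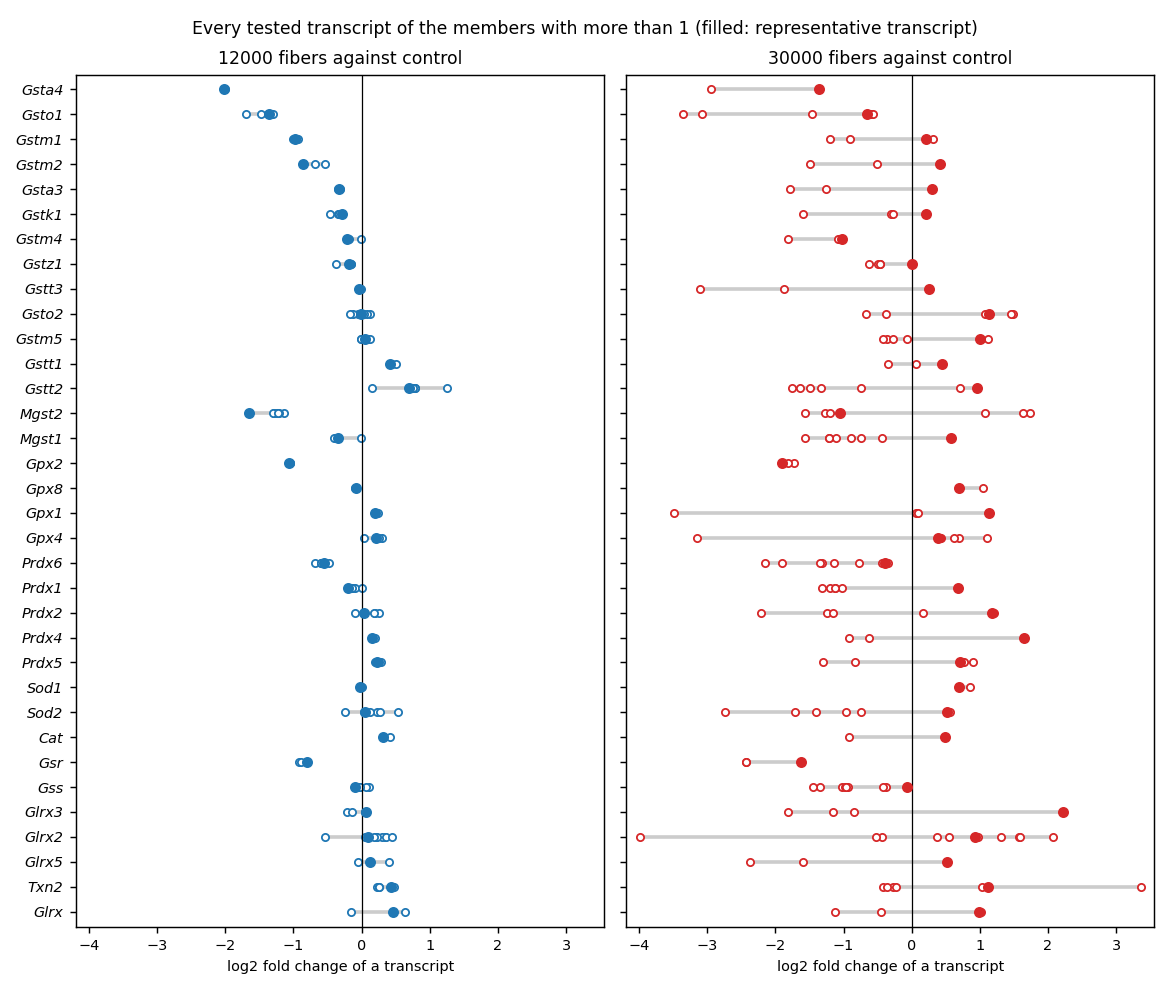
Log2 fold change against control (x axis) of every tested transcript of the 34 genes with several, at 12000 fibers (left) and 30000 fibers (right); filled points are the representative transcripts. Transcripts of a gene lie close together at 12000 fibers and spread to both sides of 0 for genes such as Glrx3, Gpx1 and Prdx1 at 30000 fibers.

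The 2 doses were also compared with each other. Of 41 genes, 27 were higher and 3 lower at 30000 than at 12000 fibers, with a median log2 fold change of 0.66, against 28.3% higher, 27.1% lower (55.4% in all) and a median of -0.01 over all genes. Groups did not overlap for 29 genes, 26 higher and 3 lower, against 52.3% of all genes (26.7% higher, 25.6% lower). Without Gsta2 and Sod3, 25 were higher and 3 lower of 39 (median 0.63), and 24 and 3 did not overlap. The falls were Gpx2, Gsr and Gstm4 (-0.81 ± 0.23, adjusted p 0.00482). The rises were led by Glrx3 (2.15 ± 0.11), Txn1 (1.67 ± 0.07), Prdx4 (1.49 ± 0.11), Gstm2, Gstm1, Gsto2 (1.15 ± 0.31), Prdx2 (1.15 ± 0.07) and Gpx1 (0.95 ± 0.07), among genes well above the filter. Here too 20 of 34 genes had transcripts called in opposite directions, a count not made over all genes. With the length trend taken out the median of the 41 genes, Gsta2 and Sod3 included, was 0.23.

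Among the remaining genes, Mgst1 (0.91 ± 0.09), Prdx1 (0.88 ± 0.07), Sod1 (0.72 ± 0.06), Prdx3 (0.68 ± 0.09), Gsta3 (0.63 ± 0.18), Prdx5 (0.48 ± 0.07) and Sod2 (0.46 ± 0.08) were higher at 30000 than at 12000 fibers. With summed transcripts Mgst1 (-0.02, adjusted p 0.869), Prdx1 (0.05, adjusted p 0.599) and Gsta3 (0.00, adjusted p 0.993) were not called. Prdx6, Cat, Gpx4, Gss, Gstt1, Mgst2 and Mgst3 did not pass. With summed transcripts Gpx4 (0.45, adjusted p 0.00174) and Mgst2 (1.66, adjusted p 3.87e-06) were higher and Gss lower (-0.50, adjusted p 3.75e-04). With only the 2 groups in the fit Cat (0.18, adjusted p 0.0382), Prdx6 (0.16, adjusted p 0.0364) and Mgst2 (0.60, adjusted p 0.019) passed. Mgst2 also passed with its highest protein-coding transcript (2.21, adjusted p 4.17e-08), with mouse as a replicate block (0.61, adjusted p 0.00857) and without 12000 fiber mouse 4 (0.82, adjusted p 0.0133), and Mgst3 with the block (-0.28, adjusted p 0.034). Gstk1 was higher (0.51 ± 0.20, adjusted p 0.0339), but not without mouse 2, 3 or 4 at 12000 fibers or mouse 1 or 4 at 30000 fibers, where it was 0.40 to 0.49, nor with summed transcripts (0.26, adjusted p 0.274). Gpx3 was higher (4.13 ± 1.56 against 1.89 ± 0.866 CPM, adjusted p 0.0187), but not without 30000 fiber mouse 2 (0.99, adjusted p 0.0691) or 3 (0.96, adjusted p 0.0854).

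With the fibroblast marker score as a covariate, 14 genes were higher and 3 lower at 30000 fibers than in controls, against 11.1% and 14.1% of all genes. Gpx2 (-0.89, adjusted p 0.00706), Gsr (-1.05, adjusted p 2.32e-05) and Gstm4 (-1.24, adjusted p 0.0469) stayed lower, while Gsta4 (-0.18, adjusted p 0.49), Gsto1 (-0.31, adjusted p 0.344), Mgst2 (-0.26, adjusted p 0.764) and Prdx6 (-0.10, adjusted p 0.749) were no longer called. Among the rises whose calls ended were Cat, Sod2, Gpx3 (0.13, adjusted p 0.942), Gpx4 (0.65, adjusted p 0.0867), Gstm2 (0.55, adjusted p 0.143) and Prdx5 (0.43, adjusted p 0.0747). Summed club, basal, ciliated, alveolar type 1 and pan-epithelial markers were lower at this dose, while the club marker Scgb1a1 was higher. Of 7 tested alveolar type 1 markers, 3 were called lower. Alveolar type 2 markers went the other way, with 6 of 10 higher and 2 lower, and sums above every control. The part of these cell types was not tested.

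Other genes of the glutathione, thioredoxin and NRF2 pathways came from a list of 67, of which 62 were tested. At 12000 fibers 21 were higher (33.9%) and 15 lower (24.2%), against 18.7% and 19.3% of all genes. The 5 with the smallest p were Sqstm1, an autophagy receptor that binds KEAP1 (507 to 973 CPM, log2 fold change 0.94 ± 0.08), the dipeptidase Cndp2 (66.1 to 127 CPM, 0.94 ± 0.09), sulfiredoxin Srxn1, which repairs overoxidised peroxiredoxins (57.1 to 96.3 CPM, 0.76 ± 0.08), transketolase Tkt of the pentose phosphate pathway (389 to 276 CPM, -0.49 ± 0.06) and thioredoxin reductase Txnrd1 (268.5 to 434.5 CPM, 0.69 ± 0.08). Srxn1 and Txnrd1, which act on peroxiredoxins and thioredoxin, were thus higher at 12000 fibers, while Txn1 did not pass and Gsr was lower.

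At 30000 fibers 24 of the 62 were higher and 16 lower than in controls, 64.5% in all, near the 65.6% of all genes. Esd, a hydrolase of S-formylglutathione, rose by 1.59 ± 0.07 on the log2 scale, the thioredoxin-like Txndc17 by 1.33 ± 0.08 and the methionine sulfoxide reductase Msrb1 by 1.74 ± 0.13, while Tkt (-1.14 ± 0.06) fell. Against 12000 fibers 16 were higher and 19 lower, 56.5% against 55.4% of all genes, led by Esd (1.48 ± 0.07), Txndc17 (1.45 ± 0.08), Msrb1 (1.48 ± 0.13) and Oplah, which opens 5-oxoproline to glutamate (-1.32 ± 0.12).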

How the data were processed

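RNA was sequenced from 24 organoid samples, and the 12 epithelial libraries were used. The deposited values were raw counts per Ensembl transcript, neither normalized nor pooled, per the file header and the whole-number values. Tools named in the submitters' processing notes are HISAT2 2.1.0 (build mm10), cutadapt 1.12, FastQC and bcl2fastq. What counted the reads, whether strand was used and how molecular barcodes entered is not stated there, so overlapping or antisense genes cannot be told apart. No gene values were taken from the fibroblast columns: their 107814 entries did not line up with the identifiers (Spearman rho 0.0467, across entries against the epithelial columns).

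For every gene the transcript of highest mean over the 12 libraries stood for it. edgeR 4.0.16 (R 4.3.3; limma 3.58.1) was fitted to all 3 groups together (filterByExpr with a minimum count of 10, TMM scaling, quasi-likelihood F test, 9 residual degrees of freedom), with Benjamini-Hochberg adjustment over 13759 genes and a threshold of 0.05. CPM are counts per 1000000 of the TMM-scaled total of representative counts, and errors on log2 fold changes are SE. The procedure was tested on simulated data. DESeq2 1.42.0, other scalings and filters, summed transcripts, a mouse block, a fibroblast covariate, removal of a length trend and leaving out each library were alternatives. Positions and lengths came from GENCODE M21 (GRCm38, the assembly of mm10), which held all 43 transcripts; promoters came from RefSeq. Counting depth limits the genes at a few CPM most, and above all in the 30000 fiber group.

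The genes described in full were a fixed set of family members plus up to 8 rises and 8 falls by log2 fold change in each comparison, among genes past the threshold, averaging a log2 CPM of 1 or more and the same direction in all 4 mice. Of the pathway list, up to 5 genes by smallest p are named. An item of that list is not reported here. Members, lists and tests were chosen with earlier results of these data known. The labels give mouse 1 to 4 in every group and 4 independent isolations from 4 mice, so the numbers pair the samples by animal. Deviations from group means correlated at r of -0.019 to 0.156 for the same mouse (12 pairs) and -0.184 to 0.124 for different mice (36 pairs). Replicate libraries differed by more than sampling noise.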

Additional observations from a re-analysis of the deposited data

Results flagged for a closer look

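For each tested gene and group of 4 libraries, the highest or lowest library was checked against the others by its gap to the nearest, relative to the range of the group (Dixon, 95%). This marked 6 of 123 groups, about the 1 in 20 that chance gives. In controls, Gpx1 in mouse 1 stood at 124.4 CPM (the other libraries 103.2 to 105.8) and Prdx5 in mouse 3 at 83.65 CPM (72.85 to 74.13). At 12000 fibers, Mgst2 in mouse 4 stood at 10.72 CPM (5.996 to 6.128). At 30000 fibers, mouse 2 was low for Gpx2, at 24.69 CPM (29.06 to 29.77), and for Gsto1, at 458.2 CPM (508.1 to 511.3), and mouse 4 was high for Gsto2, at 10.36 CPM (5.093 to 5.887).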

How the results depend on the processing

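Counts of called genes stayed within 1.5 times under DESeq2, upper quartile scaling, leaving out mitochondrial genes or the filter, fitting only the 2 groups compared, and the highest protein-coding transcript (chosen after seeing the data). Counts and medians in this section include Gsta2 and Sod3 where they passed the filter. With mouse as a replicate block, 9 genes were higher and 12 lower at 12000 fibers, 28 and 8 at 30000 fibers, and 28 and 4 between doses. Over all 13759 genes the block gave 2730 higher and 2791 lower, 4480 and 4661, and 3946 and 3823, in the same order. Beside the calls given in the report, the block changed no other call of a named gene. With the fibroblast covariate the counts were 0 and 5 at 12000 fibers, against 1.02% and 5.18% of all genes. At 30000 fibers they were 14 and 3, against 11.1% and 14.1%, and the median was 0.43. The covariate separates the groups and leaves fewer degrees of freedom. At 30000 fibers the median was 0.30 with summed transcripts and 0.67 with the highest protein-coding transcript. Between doses, summed transcripts gave 5 lower, against 3695 of all 14002 genes, and a median of 0.48. Length correction gave a median of 0.23. The cause was not tested. Without each library in turn, 6 to 9 genes were higher and 9 to 11 lower at 12000 fibers (median -0.02 to 0.06), 26 to 29 and 8 at 30000 fibers (0.54 to 0.66), and 26 to 27 and 3 between doses (0.63 to 0.70). Of all 13895 to 13994 genes tested in these fits, 2166 to 2683 were higher and 2275 to 2731 lower at 12000 fibers. At 30000 fibers these counts were 4205 to 4433 and 4368 to 4582, and between doses 3608 to 3810 and 3433 to 3548.

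Directions changed as follows, as log2 fold changes; the cause was not tested. At 12000 fibers, the covariate gave Gpx3 -0.57, Gstt1 -0.24, Mgst1 0.04, Mgst3 0.23, Prdx1 0.02, Prdx4 -0.03, Sod2 -0.08 and Sod3 -0.56, and the protein-coding choice gave Sod1 0.01. At 30000 fibers, summed transcripts gave Gsta3 -0.33, Gstk1 -0.11, Gstm1 -0.09, Mgst1 -0.38, Mgst2 0.30 and Prdx1 -0.12. The protein-coding choice gave Gstk1 -0.31 and Mgst2 1.08 there. With the covariate Gpx7 was -1.13, Gss 0.04, Gstk1 -0.30, Gsto2 -0.06, Gstt1 -0.69 and Mgst3 0.22. Among genes called at 30000 fibers, length correction gave Gpx4 -0.32 and Gstm2 -0.23. It also turned genes not called, such as Gstm1 (-0.26) and Gstk1 (-0.19). Between doses, upper quartile scaling gave Gss -0.01 and Gstt1 0.00, and summed transcripts Gss -0.50, Gstt1 -0.14, Mgst1 -0.02 and Prdx6 -0.12. The covariate gave Cat -0.02 and Gstt1 -0.45 between doses. Length correction gave Gsta4 -0.09 among genes called between doses. Genes not called between doses also turned with it, such as Gpx4 (-0.55) and Gss (-0.17). Leaving out libraries moved Gpx3 and Prdx2 at 12000 fibers over -0.20 to 0.28 and -0.02 to 0.09, and Gss and Gstt1 between doses over -0.02 to 0.07 and -0.11 to 0.14.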
